A study of Mus musculus and Mus musculus musculus x Mus musculus castaneus with 52 samples.

Results

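The mitochondrially encoded transcripts are the RNAs read from the small circular genome inside the mitochondrion. They were taken as every gene of the deposited expression table whose symbol begins with mt-, which gave 15 of 16687 genes. These are 7 mRNAs (mt-Nd1, mt-Nd2, mt-Co1, mt-Nd4, mt-Nd5, mt-Nd6 and mt-Cytb), 2 rRNAs (mt-Rnr1 and mt-Rnr2) and 6 tRNAs (mt-Tl1, mt-Ti, mt-Tq, mt-Tw, mt-Tt and mt-Tp). RefSeq lists 37 genes on this genome, of which 13 code for proteins, 22 are tRNAs and 2 are rRNAs, and those without a value in the table are not analysed here.

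The study read poly(A) RNA from mouse pluripotent stem cells that differ in their sex chromosomes, and 24 libraries were analysed. Induced pluripotent stem cells (iPSCs, somatic cells reprogrammed to pluripotency) comprised the female lines LV20, LV21 and LV22 at passage 13 (P13), which the series names XO, and at passage 7 (P7), when they are XX by their labels, and the male XY lines LV4, LV8 and LV16 at P13 and P7. Embryonic stem cells (ESCs) comprised the XX lines CM1 and CM2 and the XY lines CM3 and CM7 at passage 5 (P5). A withdrawal experiment, labelled as grown without feeder cells, read 2 clones labelled Dusp9+/- and female, the XX line F121 and the XY line V6.5. Each was read 24 h after removal of LIF and at 0 h. LIF is the cytokine that keeps mouse ESCs undifferentiated. The LV and V6.5 lines are labelled Mus musculus, whereas the CM, F121 and Dusp9+/- lines are labelled as musculus by castaneus crosses. The strain of their mitochondrial DNA is not given. A difference in strain and a difference in cell kind therefore cannot be told apart where these lines are compared. The same holds for strain and sex between F121 and V6.5. Each line at each passage or time is 1 library, each Dusp9+/- line is 1 clone, and F121 and V6.5 have 1 library at each time. Male feeder cells are named only in how the chromatin samples were grown, and whether the RNA of the CM and LV lines holds feeder RNA is not given.

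The mitochondrial genome codes for a core set of subunits of the respiratory chain and for the rRNAs and tRNAs of the mitochondrion's own ribosome. Both strands are transcribed as long precursors, and the tRNAs, which lie between many of the larger genes, are cut out to release the mRNAs and rRNAs. All other respiratory subunits, the mitochondrial ribosomal proteins and every factor that copies, transcribes or processes mitochondrial RNA are made from nuclear genes.

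In coordinates of GRCm38, the 2 rRNA genes stand near the start of the annotated sequence, with mt-Rnr1 at MT:70-1024 and mt-Rnr2 at MT:1094-2675. The tRNA gene mt-Tl1 (MT:2676-2750) follows mt-Rnr2 without a gap and touches mt-Nd1 (MT:2751-3707). Further along the same strand lie mt-Nd2 (MT:3914-4951), mt-Co1 (MT:5328-6872), mt-Nd4 (MT:10167-11544), mt-Nd5 (MT:11742-13565) and mt-Cytb (MT:14145-15288), while mt-Nd6 (MT:13552-14070) is read from the other, light strand. The tRNA genes mt-Ti (MT:3706-3774), mt-Tq (MT:3772-3842) and mt-Tw (MT:4950-5016) overlap a neighbour by 2 or 3 bases, and mt-Tt (MT:15289-15355) and mt-Tp (MT:15356-15422) follow mt-Cytb without a gap. mt-Nd5 and mt-Nd6 share 14 bases on opposite strands, and the strand setting of the counting is not given in the sources used here.

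Mitochondrially encoded RNA took 6910867 of 262627543 recovered reads. Its share ran from 1.72% to 3.28% over the 24 libraries, with a median of 2.79%, and the widest exact 95% binomial interval reached 0.012 percentage points to either side, which covers counting error only. Per kilobase of gene, mt-Nd1 (5204 CPM per kb, library-scaled read counts divided by length) and mt-Co1 (4897 CPM per kb) had the highest means over the 24 libraries, and mt-Cytb (4114 CPM per kb) stood next. mt-Nd1, mt-Nd2, mt-Nd4 and mt-Nd5 code for subunits of complex I, the NADH dehydrogenase, mt-Co1 for the catalytic subunit of complex IV, and mt-Cytb for the cytochrome b of complex III. mt-Nd2 averaged 2410, mt-Nd5 1567 and mt-Nd4 1252 CPM per kb, so the complex I mRNAs spanned a wide range among themselves. The light-strand mRNA mt-Nd6, a further complex I subunit, averaged 388 CPM per kb, below every other mRNA.

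The rRNAs lay below 6 of the 7 mRNAs, with means of 905 CPM per kb for mt-Rnr2, the large-subunit rRNA, and 425 CPM per kb for mt-Rnr1, the small-subunit rRNA. The library kit captures RNA by its poly(A) tail, so these are levels of the captured part of each RNA and not of the whole pool. The same holds for mt-Nd6, whose human counterpart lacks a long poly(A) tail. The tRNAs averaged 7.57 to 56.7 CPM per kb and held 0 to 103 reads per library, against 1495 to 125223 reads for the mRNAs and rRNAs. Among all genes of the table, mt-Co1 had the highest mean CPM, and mt-Nd1, mt-Cytb, mt-Nd5 and mt-Nd2 ranked 4, 5, 8 and 11. Nuclear copies of mitochondrial DNA can share reads with these genes, and how reads with several matches were counted is not given in the sources used here, so the absolute levels are uncertain.

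**Figure D1:**
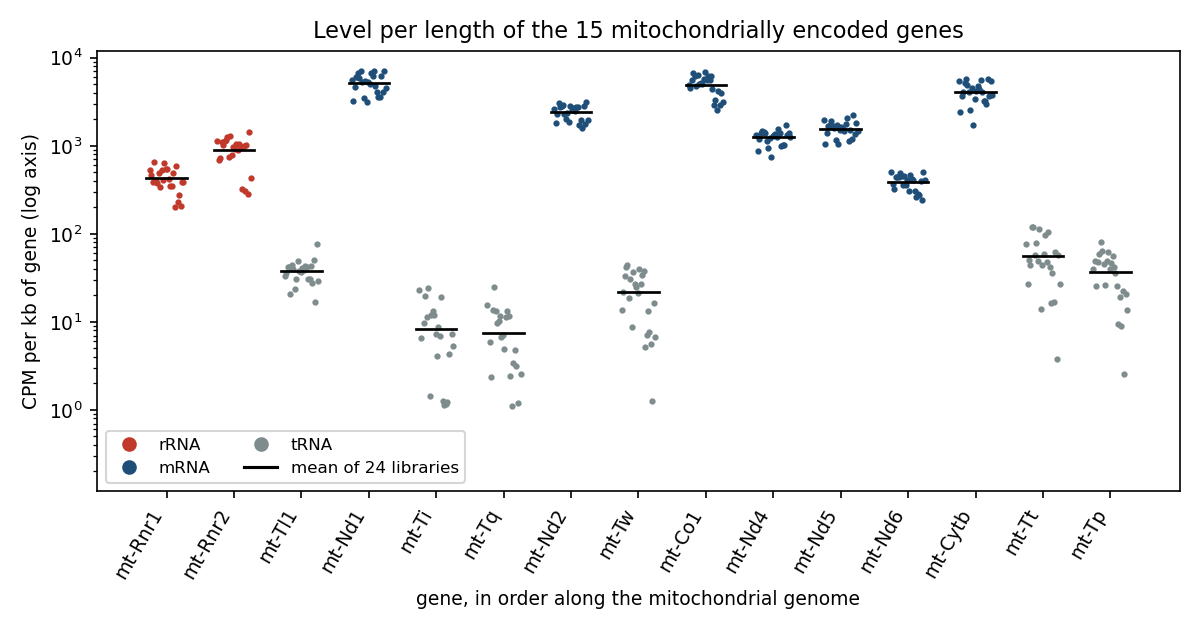
Level per length of the 15 mitochondrially encoded genes, in CPM per kb of gene on a log axis, in order along the mitochondrial genome; each point is 1 library, coloured by RNA class, and the line is the mean of 24 libraries. The mRNAs of the heavy strand reach 5204 CPM per kb on average, the rRNAs and mt-Nd6 lie near each other between 388 and 905 CPM per kb, and the tRNAs lie at 56.7 CPM per kb or below (mt-Ti and mt-Tq had 0 reads in 2 libraries each, which a log axis cannot show).

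Depth ran from 8309171 to 14245900 reads per library. All 17 pluripotency markers were in the table with a summed level of 4045 to 7570 CPM, and all 26 fibroblast and feeder markers were present too, with 1818 to 8162 CPM summed and only Lum at 0 in any library (V6.5 at 24 h). LV21 at P7 and LV22 at P13 stood apart from their groups in the output of the X chromosome, the median log2 level of 526 X-linked genes less the median of 12865 autosomal genes. LV21 at P7, called XX by its label only, gave -0.27, against 0.36 and 0.46 in LV20 and LV22 at P7, and LV22 at P13 gave -0.26, against -0.66 and -0.75 in LV20 and LV21 at P13. Some results on the iPSC lines are therefore also given without these 2 libraries, an alternative chosen after the data were seen. These are passage in the female lines, the difference of the passage changes, and XX against XY at P7. Dusp9 itself, the gene named in the clones' label, had 5.96 and 7.43 log2 CPM in the 2 clones at 0 h, against 6.93 in F121. At 24 h it had 7.71 and 6.58 log2 CPM in the first and second clone, against 7.84 in F121. The clone with less Dusp9 was thus the first at 0 h and the second at 24 h. Dusp9 was not lower than F121 in the second clone at 0 h, so the clones are called by their label.

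Across the 24 libraries pairs of mRNAs varied together more closely at the median than pairs of an mRNA with an rRNA. Over the 21 pairs of mRNAs the median Pearson correlation of log2 levels was 0.71 (0.19 to 0.92), and over the 14 pairs of an mRNA with an rRNA it was 0.43 (-0.18 to 0.82). The 2 rRNAs differed in this, since mt-Rnr1 correlated with the mRNAs at -0.18 to 0.64 and mt-Rnr2 at 0.39 to 0.82. mt-Co1 followed mt-Rnr2 (0.71) more closely than mt-Nd4 (0.24) or mt-Nd5 (0.24). Among the mRNAs and rRNAs, mt-Nd6 was closest to mt-Rnr2 (0.75). mt-Rnr1 and mt-Rnr2 correlated at 0.61 with each other. The libraries share lines, media and experiments, so these 24 points are not independent. mt-Cytb had the widest range among the mRNAs, 1.71 on the log2 scale, and mt-Nd2 the narrowest, 0.98, while mt-Rnr2 spanned 2.35. mt-Cytb was also loosely tied to mt-Co1 (0.19), although it followed mt-Nd4 closely (0.92).

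**Figure D2:**
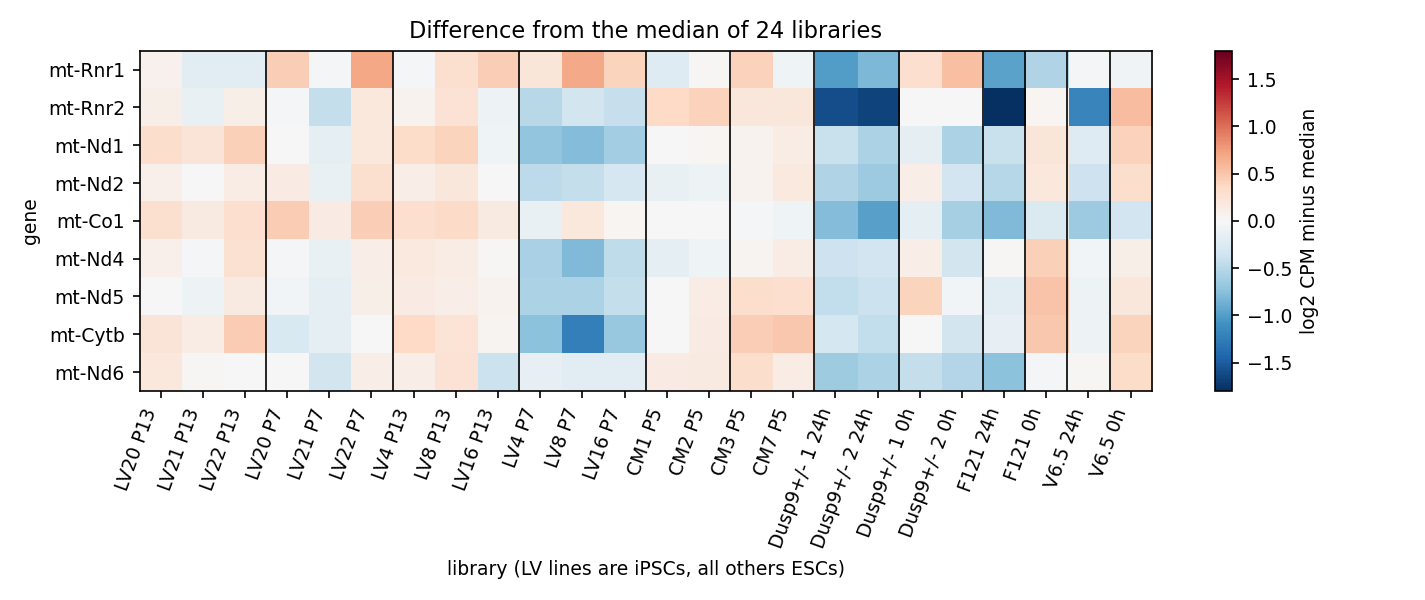
Log2 CPM of the 2 rRNAs and 7 mRNAs in each of the 24 libraries, minus that gene's median over the 24 libraries (colour scale in log2 units); vertical lines separate the groups. The XY iPSC lines at P7 are below the median for mt-Nd1, mt-Nd2, mt-Nd4, mt-Nd5 and mt-Cytb, and the 4 libraries at 24 h are lowest for mt-Rnr2, at 8.80 to 9.40 log2 CPM.

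The mean log2 level of the 7 mRNAs ordered the groups as follows, from low to high. The Dusp9+/- clones at 24 h averaged 10.72 and the XY iPSCs at P7 10.78 ± 0.08 (SD, n = 3), followed by F121 at 24 h with 10.86, V6.5 at 24 h with 11.04 and the Dusp9+/- clones at 0 h with 11.05. Then came the CM XX lines with 11.26 and the XX iPSCs at P7 with 11.28 ± 0.16 (SD, n = 3). The XY iPSCs at P13 (11.40 ± 0.15, SD, n = 3), the XO iPSCs at P13 (11.41 ± 0.10, SD, n = 3), the CM XY lines (11.43), V6.5 at 0 h (11.46) and F121 at 0 h (11.47) formed the top, and neighbours within it differed by less than the spread between lines. The same holds for the CM XX lines beside the XX iPSCs at P7, and for the Dusp9+/- clones at 24 h beside the XY iPSCs at P7. Groups with 1 library have no spread of their own. The rRNAs did not follow this order. Their mean log2 level minus that of the mRNAs was -1.19 ± 0.21 in XY iPSCs at P7, the group with few mRNA reads, but -2.40 in the Dusp9+/- clones at 24 h, which had as few.

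**Figure D3:**
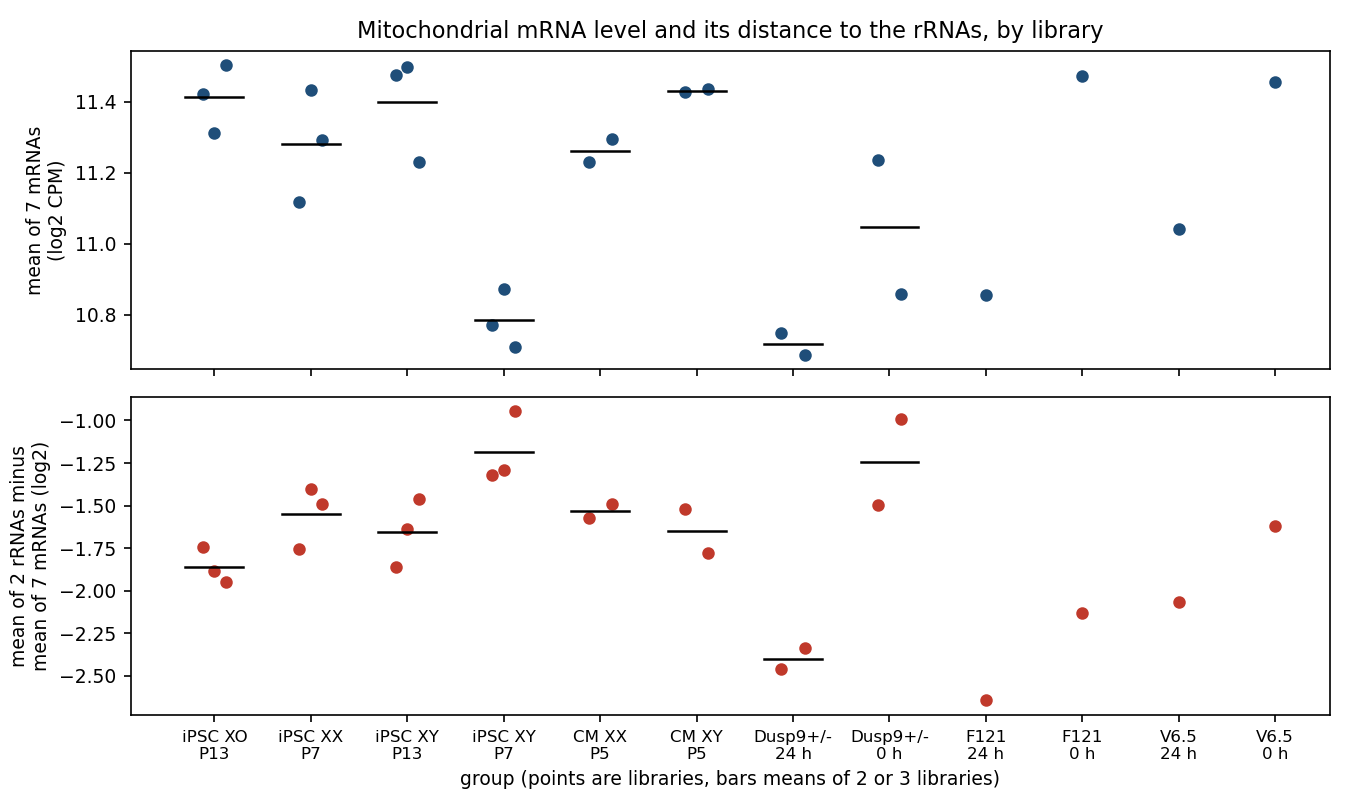
Upper panel, mean log2 CPM of the 7 mitochondrial mRNAs; lower panel, mean log2 CPM of the 2 rRNAs minus that of the mRNAs; each point is 1 library and the bars are means of groups with 2 or 3 libraries. mRNA levels are low both in XY iPSCs at P7 and at 24 h without LIF, whereas the rRNA level relative to the mRNAs is high in the first (-1.19) and low in the Dusp9+/- clones at 24 h (-2.40).

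In the XY iPSC lines, mitochondrial mRNAs were higher at P13 than at P7. mt-Cytb had 12.54, 12.44 and 12.24 log2 CPM in LV4, LV8 and LV16 at P13, against 11.44, 10.96 and 11.50 at P7. All P13 values lay above all P7 values, and mt-Cytb was 2.15-fold higher, a log2 change of 1.10 ± 0.13 (SE, adjusted p = 0.00107, limma with Benjamini-Hochberg adjustment over 13978 genes, two-sided). In these libraries, as in all bulk comparisons below, a different number of cells of a type and a different amount of RNA per cell cannot be told apart. mt-Nd1 had 12.65, 12.72 and 12.24 log2 CPM at P13, against 11.60, 11.54 and 11.69 at P7, again without overlap (0.93 ± 0.12, adjusted p = 0.00112). The log2 change was 0.72 for mt-Nd4, 0.64 for mt-Nd5 and 0.51 for mt-Nd2, each called at an adjusted p under 0.05. mt-Co1 (0.24, adjusted p = 0.128) and the light-strand mRNA mt-Nd6 (0.17, adjusted p = 0.473) did not pass. The share of reads that was mitochondrial was 3.18%, 3.27% and 2.77% in LV4, LV8 and LV16 at P13, against 2.00%, 2.11% and 2.17% at P7.

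The rRNAs parted in the same comparison. mt-Rnr2 had 10.66, 10.85 and 10.51 log2 CPM in LV4, LV8 and LV16 at P13, against 10.10, 10.27 and 10.19 at P7, and was called higher (0.49 ± 0.13, adjusted p = 0.0279, limma). mt-Rnr1 had 8.56, 8.87 and 9.03 log2 CPM at P13, against 8.80, 9.26 and 8.98 at P7, and its values overlapped (-0.19, adjusted p = 0.476). Of the tRNAs, mt-Tt, the threonine tRNA next to mt-Cytb, had the largest change (1.37, adjusted p = 0.0521). In all, 6 of the 13 members tested were called higher, whereas 7.23% of all genes tested were called higher, and voom, which fits the recovered reads with a weight for each value, also called 6. The 5 mRNA calls held in all 16 alternative settings. The mt-Rnr2 call held in 10 of them, and was lost with no filter on low values (adjusted p = 0.0578), and without LV4 at P7 (adjusted p = 0.0799), LV4 at P13 (0.0888), LV8 at P13 (0.116), LV16 at P7 (0.0735) or LV8 at P7 (0.0706).

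Fibroblast and feeder markers moved in the same direction. Of 26 tested, 19 were called higher at P13 in XY iPSCs, with a median log2 change of 1.62 and summed levels of 4891 to 8162 CPM at P13, against 3711 to 4067 CPM at P7. Col3a1 (2.33), Col6a3 (2.27) and Prrx1 (2.26) changed most. Their part in the mitochondrial result was not tested. Among the nuclear genes for respiratory subunits, 0 of 37 of complex I, 0 of 4 of complex II, 0 of 9 of complex III, 0 of 11 of complex IV and 0 of 17 of complex V were called in limma or voom, with 2 of complex I and 1 of complex V at an unadjusted p under 0.05. Of 31 genes for mitochondrial RNA processing and stability, 5 were called higher, among them Rexo2 (0.82), an oligoribonuclease, Elac2 (0.61), which cuts tRNA ends, and Ddx28 (0.54), an RNA helicase of mitochondrial ribosome assembly. Of 76 mitochondrial ribosomal proteins 8 were called higher, against the 7.23% of all genes tested, with Mrps18b (0.59), Mrpl20 (0.57) and Mrps26 (0.53) changing most.

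In the female lines the passage comparison also spans the loss of an X chromosome named by the series, and the 2 cannot be told apart. mt-Cytb had 12.41, 12.31 and 12.65 log2 CPM in LV20, LV21 and LV22 at P13, when XO, against 11.91, 12.03 and 12.18 at P7, when XX. The groups did not overlap, but the log2 change of 0.42 ± 0.13 missed the threshold (adjusted p = 0.0651, limma). mt-Nd1 had 12.63, 12.54 and 12.74 log2 CPM at P13, against 12.32, 12.14 and 12.50 at P7 (0.32, adjusted p = 0.100). mt-Rnr1 lay the other way, with 8.65, 8.39 and 8.40 log2 CPM at P13, against 9.02, 8.55 and 9.28 at P7 (-0.47 ± 0.17, adjusted p = 0.0943). limma called 0 of 13 members, whereas 9% of all genes tested were called. At an unadjusted p under 0.05 there were 3, and voom called 0.

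With the line as a replicate block, mt-Cytb (adjusted p = 0.0412) and mt-Rnr1 (adjusted p = 0.0388) were called in limma. Without LV21 at P7, mt-Rnr1 was called at -0.67 (adjusted p = 0.00882), and when LV22 at P13 was left out as well, at -0.63 (adjusted p = 0.0257). Here, 10 of 26 fibroblast and feeder markers were called higher at P13, with summed levels of 3790 to 6364 CPM at P13, against 3226 to 4253 CPM at P7, and their part in these values was not tested. The X-linked complex I gene Ndufa1 was called lower (-0.75), 5 of 31 RNA processing genes were called higher, Fastkd3 (0.55), Elac2 (0.47) and 1110008L16Rik (0.43) among them, and 4 of 76 mitochondrial ribosomal proteins were called higher, against 4.32% of all genes tested.

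In all 6 iPSC lines, mt-Rnr1 was lower relative to mt-Rnr2 at P13 than at P7. The log2 level of mt-Rnr1 minus that of mt-Rnr2 was -2.05, -2.07 and -2.31 in LV20, LV21 and LV22 at P13, against -1.56, -1.63 and -1.51 at P7. In LV4, LV8 and LV16 it was -2.10, -1.99 and -1.48 at P13, against -1.30, -1.01 and -1.20 at P7. The difference between the passages within a line ran from -0.28 (LV16) to -0.97 (LV8), and it is a description of 2 members without a test.

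The change with passage was smaller in the female than in the male lines for the same mRNAs, but the test of that difference made no call. The log2 change in female lines minus that in male lines was -0.69 for mt-Cytb, -0.61 for mt-Nd1, -0.60 for mt-Nd4, -0.58 ± 0.12 for mt-Nd5 and -0.54 for mt-Nd2, with adjusted p = 0.443 for mt-Cytb and 0.434 for the other 4 (limma interaction term). Of 13 members 0 were called, against 0% of all genes tested, 6 mRNAs reached an unadjusted p under 0.05 and voom called 0. Without LV21 at P7, 4 members were called lower, namely mt-Nd1, mt-Nd2, mt-Nd4 and mt-Nd5 (adjusted p = 0.0282 to 0.0496). With LV22 at P13 left out as well, these 4 were called again, with mt-Nd5 at -0.71 (adjusted p = 0.00754).

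At P7, mitochondrial mRNAs were higher in XX than in XY iPSCs. This comparison shares the XY libraries at P7 with the passage comparison of the male lines, and their low level enters both. mt-Cytb had 11.91, 12.03 and 12.18 log2 CPM in XX lines LV20, LV21 and LV22, against 11.44, 10.96 and 11.50 in XY lines LV4, LV8 and LV16. The groups did not overlap, and mt-Cytb was 1.67-fold higher in XX iPSCs (0.74 ± 0.13, adjusted p = 0.0105, limma). mt-Nd1 had 12.32, 12.14 and 12.50 log2 CPM in XX lines, against 11.60, 11.54 and 11.69 in XY lines (0.71 ± 0.12, adjusted p = 0.00736). mt-Nd4 (0.60), mt-Nd2 (0.51) and mt-Nd5 (0.49) were also called higher, whereas mt-Co1 (0.32, adjusted p = 0.0855) and mt-Nd6 (0.11) were not.

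Neither rRNA was called at P7. mt-Rnr2 had 10.58, 10.17 and 10.79 log2 CPM in XX iPSCs, against 10.10, 10.27 and 10.19 in XY iPSCs, and LV21 fell within the XY range (0.33, adjusted p = 0.165, limma). mt-Rnr1 had 9.02, 8.55 and 9.28 log2 CPM in XX iPSCs, against 8.80, 9.26 and 8.98 in XY iPSCs (-0.06, adjusted p = 0.866). In all, 5 of 13 members were called higher, whereas 3.05% of all genes tested were called higher, and voom called 5. The count was 0 without LV22 at P7, where the adjusted p of these 5 was 0.0544 to 0.0809, and 0 without LV8 at P7, where it was 0.0511 to 0.0663. Without LV20 at P7 it was 4, with mt-Nd2 lost (adjusted p = 0.0598). Without LV21 at P7, alone or together with LV22 at P13, it was 7, with mt-Co1 (0.42, adjusted p = 0.00990 without LV21) and mt-Rnr2 (0.50, adjusted p = 0.00828 without LV21) added.

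Of the 26 fibroblast and feeder markers, 0 were called between XX and XY iPSCs at P7 in limma or voom (3 at an unadjusted p under 0.05), with summed levels of 3226 to 4253 CPM in XX, against 3711 to 4067 CPM in XY iPSCs. Of 17 pluripotency markers 4 were called higher in XX iPSCs, led by Tbx3 (1.98), Klf5 (0.74) and Klf4 (0.46), and their part was not tested. Among nuclear respiratory genes, the X-linked Ndufa1 of complex I (1.19) and Cox5b of complex IV (1.17) were called higher, and of the mitochondrial ribosomal proteins Mrpl24 (-0.35) was called lower.

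At P13 no mitochondrial member differed detectably between the female and the male lines. mt-Cytb averaged a log2 difference of 0.05 ± 0.13 and mt-Nd1 of 0.10 ± 0.12 between XO and XY iPSCs, and the overlapping single values are those given for P13 above. Over the 13 members the differences ran from -0.34 to 0.32. The largest difference among mRNAs and rRNAs was that of mt-Rnr1, with 8.65, 8.39 and 8.40 log2 CPM in XO iPSCs, against 8.56, 8.87 and 9.03 in XY iPSCs (-0.34 ± 0.17, adjusted p = 0.999). limma called 0 of 13 members, 0 reached an unadjusted p under 0.05 and voom called 0, whereas 0.0286% of all genes tested were called. A p above the threshold does not show that the levels are the same.

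**Figure D4:**
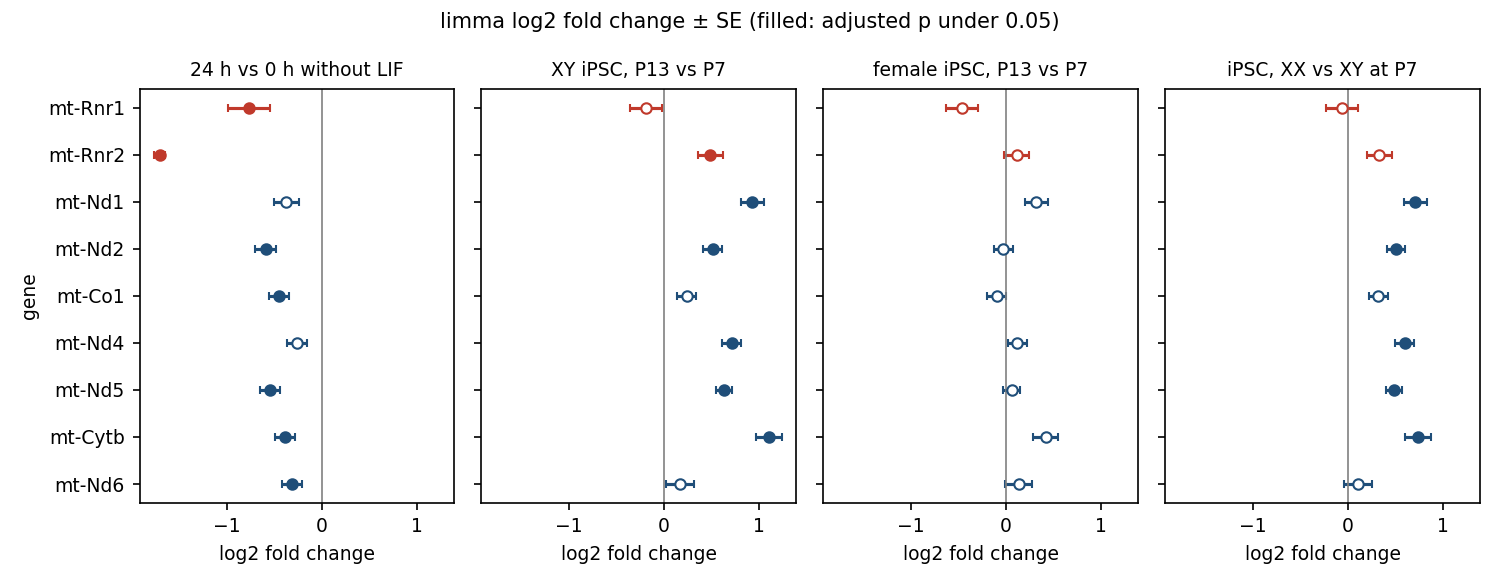
Log2 fold change with its standard error for the 2 rRNAs (red) and 7 mRNAs (blue) in 4 comparisons, from limma; filled points have an adjusted p under 0.05. At 24 h against 0 h of LIF withdrawal mt-Rnr2 changes by -1.71, beyond every mRNA, whereas in XY iPSCs at P13 against P7 mt-Cytb (1.10) and mt-Nd1 (0.93) change most.

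Mitochondrial RNA was lower 24 h after withdrawal of LIF, among the members tested most of all mt-Rnr2 and, on few reads, mt-Tt. mt-Rnr2 had 9.00 and 8.93 log2 CPM in the 2 Dusp9+/- clones, 8.80 in F121 and 9.40 in V6.5 at 24 h, against 10.59 and 10.61 in the clones, 10.64 in F121 and 11.15 in V6.5 at 0 h. The 4 values at 24 h were the lowest of all 24 libraries, and mt-Rnr2 was 3.28-fold lower, a log2 change of -1.71 ± 0.06 (adjusted p = 5.1e-05, limma over 14335 genes with genotype as a covariate). mt-Rnr1 had 7.57 and 7.77 log2 CPM in the clones, 7.62 in F121 and 8.54 in V6.5 at 24 h, against 8.89 and 9.13 in the clones, 8.05 in F121 and 8.52 in V6.5 at 0 h (-0.77 ± 0.22, adjusted p = 0.0337). mt-Rnr1 was thus much lower at 24 h in the clones, less so in F121 and level in V6.5. From 0 h to 24 h it changed by -0.42 in F121 and 0.02 in V6.5 on the log2 scale, while the mean of the mRNAs changed by -0.61 in F121 and -0.41 in V6.5. Together the rRNAs took 0.0716% and 0.0720% of reads in the clones, 0.0636% in F121 and 0.101% in V6.5 at 24 h, against 0.211% and 0.224% in the clones, 0.186% in F121 and 0.257% in V6.5 at 0 h.

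The log2 level of mt-Rnr1 minus that of mt-Rnr2 was -1.43 and -1.16 in the clones, -1.18 in F121 and -0.86 in V6.5 at 24 h, against -1.70 and -1.48 in the clones, -2.60 in F121 and -2.63 in V6.5 at 0 h. It was higher at 24 h in every line, the opposite of its direction with passage in the iPSC lines. The mean of both rRNAs minus that of the mRNAs was -2.46 and -2.34 in the clones, -2.64 in F121 and -2.07 in V6.5 at 24 h, against -1.50 and -0.99 in the clones, -2.13 in F121 and -1.62 in V6.5 at 0 h. These differences between classes of members carry no test.

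Among the mRNAs, mt-Nd2 (-0.60), mt-Nd5 (-0.55), mt-Co1 (-0.45), mt-Cytb (-0.39) and mt-Nd6 (-0.32) were called lower at 24 h. mt-Nd2 had 10.80 and 10.69 log2 CPM in the clones, 10.83 in F121 and 10.98 in V6.5 at 24 h, against 11.47 and 11.00 in the clones, 11.54 in F121 and 11.67 in V6.5 at 0 h, without overlap (adjusted p = 0.00575, limma). mt-Nd1 (-0.38, adjusted p = 0.0615) and mt-Nd4 (-0.27, adjusted p = 0.0789) did not pass. The 3 tRNAs tested were called lower, mt-Tt by -1.63 ± 0.38, mt-Tp, the light-strand proline tRNA, by -1.23 ± 0.30 and mt-Tl1, a leucine tRNA, by -0.85 ± 0.26. Their reads are few. In the 8 withdrawal libraries mt-Tt held 3 to 55 reads, mt-Tp 2 to 20 and mt-Tl1 15 to 57. F121 at 24 h had the fewest of each (3, 2 and 15). The log2 change of mt-Tt was -3.30 in F121, against -0.99 in V6.5.

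In all, 10 of 12 members were called lower at 24 h, whereas 15.9% of all genes tested were called lower, and voom called 10. The limma count includes mt-Tp, which passed the filter only through its 0 h libraries. mt-Rnr2, mt-Nd2, mt-Nd5 and mt-Co1 were called in all 18 alternative settings, and mt-Tt in the 17 that tested it. mt-Tp was called in the 12 settings that tested it. This does not show that its call is robust, because the settings without a 0 h library did not test it. mt-Cytb was called in 12 of the 18, mt-Rnr1 in 9 and mt-Nd6 in 6, and mt-Tl1 in 9 of the 17 that tested it. With the line as a replicate block 7 were called, and mt-Nd6 (adjusted p = 0.0812), mt-Rnr1 (0.0560) and mt-Tl1 (0.0703) were not. The count was 5 without F121 at 0 h, and 6 without F121 at 24 h, V6.5 at 0 h, the first clone at 0 h or the second clone at 24 h. mt-Cytb and mt-Nd6 lost their call in each of these 5 settings, mt-Rnr1 in all but that without V6.5, and mt-Tl1 in all but that without the first clone. mt-Tp fell under the filter of 1 CPM when any library at 0 h was left out, and without the Dusp9+/- libraries. It was then not tested, nor was it with the filter of 5 CPM. Without the Dusp9+/- libraries mt-Rnr1 was not called (-0.20, adjusted p = 0.199) and mt-Nd1 (-0.63, adjusted p = 0.00116) and mt-Nd4 (-0.28, adjusted p = 0.0419) were.

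Other lists changed in these cells as well. Of 25 fibroblast and feeder markers 13 were called lower at 24 h, with Lum (-2.39), Prrx1 (-2.15) and Pdgfra (-2.11) leading. Their summed level was 1818 to 2842 CPM in the clones, 3491 CPM in F121 and 3156 CPM in V6.5 at 24 h, against 2037 to 2917 CPM in the clones, 5463 CPM in F121 and 6046 CPM in V6.5 at 0 h, and their part in the mitochondrial result was not tested. Of 17 pluripotency markers 9 were called lower, Tbx3 (-3.08) and Klf4 (-2.69) most, and 3 higher, and of 10 formative and primed markers 7 were called higher, Fgf5 (2.75) most, and 1 lower. Primitive endoderm markers had 3 of 10 called lower, with Lama1 (-2.19) leading. Of 6 nuclear RNAs that lack or largely lack a poly(A) tail, 1 was called lower (the histone gene Hist1h1c, -0.64). This share is near the 15.9% of all genes tested that were called lower. The median of the 6 was -0.30, against 0.02 over all genes tested.

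Of the nuclear genes for respiratory subunits few were called at 24 h. In complex I 1 of 36 was called higher (Ndufab1, 0.63) and 1 lower (Ndufb4, -0.59), in complex II 1 of 4 lower (Sdhc, -0.26), and in complex IV 1 of 11 higher (Cox5b, 0.41) and 1 lower (Cox5a, -0.29). In complex III 0 of 9 and in complex V 0 of 16 were called in limma or voom, with 2 and 1 at an unadjusted p under 0.05. Of all genes tested 16.8% were called higher. Of 78 mitochondrial ribosomal proteins 22 were called higher and 0 lower, with Mrps10 (0.91), Mrpl23 (0.84) and Mrpl20 (0.62) changing most, and the list's median was 0.22, against 0.02 over all genes tested. Of 31 RNA processing and stability genes 11 were called higher and 3 lower, led by Fastkd5 (0.88), which acts in mRNA processing, Mrm3 (0.80), which methylates the large rRNA, and Rexo2 (0.56). Of 18 genes for transcription and replication of mitochondrial DNA 3 were called higher, a share near that of all genes, namely the helicase Twnk (0.60), Rnaseh1 (0.53) and the exonuclease Mgme1 (0.36). Of 9 regulators of mitochondrial biogenesis Myc (1.38) was called higher and Esrrb (-1.44) lower.

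Between the clones labelled Dusp9+/- and F121, which share the F121 libraries with the withdrawal comparison, 1 member was called at 0 h. mt-Rnr1 had 8.89 and 9.13 log2 CPM in the 2 clones, against 8.05 in F121, and was called higher (0.96 ± 0.14, adjusted p = 0.0241, limma, in which the lone F121 library is assumed to vary like the clones). This is 1 of 12 members, a share near that of all genes tested (4.81% called higher and 4.1% lower). voom called 2, mt-Cytb being called lower too. The lone F121 value of mt-Rnr1 was the lowest outside the 24 h libraries, with CM1 next at 8.35. The clones lay within the range of the other lines, since CM3 had 9.00 and LV22 at P7 9.28. Without a filter on low values mt-Rnr1 was not called (adjusted p = 0.0521). Without either clone at 0 h, 1 clone library stands against 1 F121 library and the whole spread comes from the 2 clones at 24 h. In that setting 7 members were called without the first clone, 6 of them mRNAs that were lower (-0.50 to -0.81), and 2 without the second. Of 25 fibroblast and feeder markers 10 were called lower in the clones, with 2037 to 2917 CPM summed in the clones, against 5463 CPM in F121, and their part was not tested.

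At 24 h, 0 of 12 members were called between the clones and F121 in limma, against 2.55% of all genes tested. At an unadjusted p under 0.05 there were 2, mt-Tt (1.57) and mt-Tp (1.19), and voom called 0. These 2 differences, and the change of mt-Tt given below, rest on few reads in the lone F121 library at 24 h. It held 3 reads of mt-Tt, against 14 and 13 in the clones, and 2 of mt-Tp, against 8 and 7. The other 10 log2 differences ran from -0.38 (mt-Nd4) to 0.70 (mt-Tl1). mt-Rnr1 had 7.57 and 7.77 log2 CPM in the clones, against 7.62 in F121. The change from 0 h to 24 h in the clones minus that in F121 was -0.92 ± 0.20 for mt-Rnr1 (adjusted p = 0.234) and 2.19 ± 0.42 for mt-Tt (adjusted p = 0.221). In this comparison, added after the data were seen, limma called 0 of 12 members, against 0% of all genes tested, 4 reached an unadjusted p under 0.05 and voom called 0.

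Among undifferentiated wild-type ESCs, the lines CM1, CM2 and F121 (XX) and CM3, CM7 and V6.5 (XY) were compared with the experiment as a covariate. F121 and V6.5 at 0 h also enter the withdrawal comparison. F121 is labelled as a musculus by castaneus cross and V6.5 as Mus musculus, so sex and strain cannot be told apart within this pair. The covariate does not remove this. mt-Cytb had 12.18 and 12.34 log2 CPM in CM1 and CM2 and 12.67 in F121, against 12.62 and 12.67 in CM3 and CM7 and 12.59 in V6.5. In the CM lines XX was below XY, whereas F121 and V6.5 lay close together. limma called 0 of 13 members, against 7.19% of all genes tested. The log2 differences ran from -0.41 (mt-Tw) to 0.06 (mt-Co1). At an unadjusted p under 0.05 there were 3, mt-Cytb, mt-Nd2 and mt-Rnr1, all lower in XX, and voom called 1, mt-Nd2 (-0.20). In the 4 CM lines alone 3 were called lower in XX, mt-Cytb (-0.39, adjusted p = 0.00370), mt-Nd5 (-0.24, adjusted p = 0.0309) and mt-Nd2 (-0.23, adjusted p = 0.0409), and leaving out F121 or V6.5 gives the same estimates by construction, since the experiment is a covariate. Without CM7 1 was called, mt-Rnr1 (-0.51, adjusted p = 0.0299). F121 and V6.5 alone, with 1 library each, allow no test.

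The nuclear genes called in this comparison were Ndufa1 (0.97) and Ndufb11 (0.59) of complex I and Cox7b (0.76) of complex IV, all higher in XX and all X-linked, and Fastkd3 (-0.73), lower in XX. Of 26 fibroblast and feeder markers 0 were called in limma or voom, and 1 had an unadjusted p under 0.05. mt-Nd2 thus had a log2 difference between XX and XY of -0.20 (not called) in ESCs and of 0.51 in iPSCs at P7, and the difference between these 2 comparisons was not tested.

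The iPSC lines at P7 were also set against the CM ESC lines at P5 with sex as a covariate, a comparison in which strain, line and cell kind cannot be told apart. It shares the P7 libraries with the comparisons of passage and of XX with XY iPSCs. mt-Rnr2 had 10.17 to 10.79 log2 CPM in XX and 10.10 to 10.27 in XY iPSCs at P7, against 10.96 and 11.01 in CM1 and CM2 and 10.81 and 10.81 in CM3 and CM7. The groups did not overlap (-0.55 ± 0.10, adjusted p = 0.000598, limma over 14106 genes). mt-Cytb (-0.78), mt-Nd5 (-0.47), mt-Nd1 (-0.41), mt-Nd6 (-0.31) and mt-Tt (-1.36) were called lower in iPSCs too. mt-Co1 (0.22, adjusted p = 0.0664) and mt-Rnr1 (0.36, adjusted p = 0.0557) lay higher and were not called.

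In all, 6 of 13 members were called lower in iPSCs at P7, whereas 18.7% of all genes tested were called lower, and voom called the same number lower and mt-Co1 higher (adjusted p = 0.0352). Without LV21 at P7, mt-Co1 (0.25, adjusted p = 0.0211) and mt-Rnr1 (0.45, adjusted p = 0.00754) were called higher, as were 18.5% of all genes tested in the full set of libraries. mt-Nd1 was not called without LV4 at P7 (adjusted p = 0.0507), CM3 (0.0921) or CM7 (0.0920), nor mt-Nd6 without CM3 (0.0548), while mt-Rnr1 was called higher without LV4 at P7 or CM3, mt-Co1 without LV4 at P7, and mt-Nd4 was called lower without LV22 at P7 or CM1. Of 26 fibroblast and feeder markers 20 were called lower in iPSCs, with 3226 to 4253 CPM summed in the iPSC lines, against 4763 to 5523 CPM in the CM lines, and their part was not tested.

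Outside the mitochondrial genome, the 5 genes whose log2 level most resembled the mean of the 7 mitochondrial mRNAs over the 24 libraries, out of 14229 genes, were Arid5b (Pearson correlation 0.860), Frmd4a (0.849), Prrx1 (0.849), Ccl7 (0.831) and Col6a3 (0.826). Prrx1 and Col6a3 are on the list of fibroblast and feeder markers. With the mean of the 2 rRNAs these genes correlated at 0.43 to 0.66. The 24 points share lines and experiments, and the values are a description.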

How the data were processed

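Values were deposited by the authors as log2 CPM (a log2 scale of reads relative to library size, other than raw counts), 1 column for each of 24 libraries, in a table named as normalized counts per the file headers. The builds GRCm38 and mm10 and the tools edgeR, featureCounts and STAR 2.5.3a stand in the submitters' processing notes, which give no roles here. Per the labels' protocols, RNA was extracted with TRIzol and made into stranded mRNA libraries, and whether the 8 technical repeats among the 32 RNA samples were combined is not given. The 20 chromatin samples of the 52 in the series are not analysed here. On the linear scale each value was whole steps of 1 read above a floor of 0.183 CPM (log2 of -2.45), and 100% of values gave reads within 0.01 of a whole number. The recovered totals were 8309171 to 14245900 reads, and the authors' scaling of library size ran from 0.96 to 1.055. Gene positions and lengths came from RefSeq for GRCm38.p6.

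The fits used limma 3.58.1 under R 4.3.3 (eBayes with a trend after lmFit) over genes averaging at least 1 CPM in the fitted libraries, with two-sided tests and Benjamini-Hochberg adjustment over all genes tested. Called means an adjusted p under 0.05. Of the 15 mitochondrial genes 13 passed this filter (all but mt-Ti and mt-Tq), and 12 in the withdrawal fits, where mt-Tw did not. A pseudocount of 1 had been planned for linear values, and since the table is on the log2 scale it was fitted unchanged and that pseudocount was tried as an alternative. All 12 iPSC libraries entered 1 fit of 4 group means, and the 8 withdrawal libraries 1 fit of 6 means for the clones against F121. Fits were also run on simulated counts, which had the same spread for every gene and no differences between lines, unlike these libraries. Same-numbered samples are the same line by their labels. In the iPSC lines the deviations of a line's 2 libraries from their group means correlated at only -0.04 to 0.10, and in the withdrawal lines the deviations from the mean of each time correlated at 0.32 to 0.81. Between the 2 clones alone this correlation was -0.37, against the clone numbers, so no change is given for a single clone.

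The rule for names was every mitochondrial gene in every comparison, up to 3 called members of each list and the 5 genes most like the mean of the mRNAs. Members that were not called are given by their range where they are many, and lists only where they bear on a result. The lists are complexes I to V, mitochondrial ribosomal proteins, mitochondrial RNA processing, transcription and replication of mitochondrial DNA, biogenesis regulators, RNAs without a poly(A) tail, and markers of fibroblasts and feeders, pluripotency, primitive endoderm and formative or primed cells. The members, the lists and most settings were chosen with earlier results of these data known. Alternatives were other scalings, filters and pseudocounts, voom on the recovered reads, line as a block, the spread of the compared groups alone, and leaving out libraries.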

Additional observations from a re-analysis of the deposited data

How the results depend on the processing

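Over the single genes, 2008 pairs of a gene's change and an alternative setting were computed, of which 1826 kept the direction and the side of the threshold, 57 lost a call, 52 gained one, 73 changed sign without a call in either and 0 reversed a call. Numbers of members called moved by more than 1.5 times as follows, except with line as a replicate block where a smaller move or none is named. Leaving out each library in turn gave 0 to 7 for XX against XY iPSCs at P7, 0 to 1 for passage in the female lines, 0 to 4 for the difference of the passage changes, 0 to 3 for XX against XY ESCs, 5 to 9 for withdrawal and 2 to 7 for the Dusp9+/- clones against F121 at 0 h. With LV21 at P7 left out together with LV22 at P13, the count was 1 for passage in the female lines and 4 for the difference of the passage changes. With line as a replicate block it was 2 for passage in the female lines. In withdrawal it was 7 of 10, a move of less than 1.5 times. The clone numbers there may be crossed between the times, and the crossed pairing, added after the data were seen, also gave 7. The block did not change the count for passage in the male lines (6) or for the difference of the passage changes (0). For XX against XY ESCs voom gave 1 and the 4 CM lines alone 3. For withdrawal a filter at a mean of 5 CPM gave 6, of 9 members then tested. For the clones against F121 at 0 h voom gave 2 and no filter gave 0. The causes of these differences were not tested, except that the stricter filter tests fewer members. Depth limits the tRNAs, of which mt-Ti and mt-Tq had 0 reads in 2 libraries each.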
